A study of Mus musculus with 7 samples.

Results

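The genes described here are the Hedgehog receptors and the transducers that carry the signal to the nucleus, namely *Ptch1*, *Smo*, *Sufu*, *Hhip*, *Gli1*, *Gli2* and *Gli3*, measured in the posterior second heart field (pSHF) of mouse embryos with and without *Shh*. They were chosen by name, as 7 of 21475 named genes on the array, and every probe that carried 1 of these names on the Agilent whole-genome array was taken. This gave 15 probes of the 41174 on the array, and 13 of the 15 passed the filter on dim probes and were among the 23117 tested probes of 14891 genes. The 7 samples were pools of pSHF tissue from E9.5 embryos, 4 pools of *Shh* -/- embryos (pools 1, 2, 3 and 4, called *Shh* mutant) and 3 pools of *Shh* +/+ embryos (pools 1, 3 and 4, called wild-type). All came from matings of *Shh* +/- mice on a mixed C56B/6 and CD-1 background, with superovulated females. Neural tube, heart and dorsal lateral plate had been dissected away, so that each pool held pSHF mesenchyme together with the foregut joined to it. Each pool was hybridized to 1 array. Pools of the same number shared a slide, with the mutant always in position 1 and the wild-type in position 2, and an effect of position cannot be told apart from 1 of genotype. The slide of mutant pool 2 held no other pool, and its label notes that it may have leaked.

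Hedgehog ligands such as Shh bind Ptch1, a membrane receptor that without ligand holds back Smo, the protein that passes the signal on. When Smo is released, Sufu, a cytoplasmic partner of the Gli proteins, lets them go, and the zinc-finger factors Gli2 and Gli3 act on target genes in the nucleus, Gli2 mainly as an activator and Gli3 largely as a repressor. *Ptch1*, *Hhip* (a membrane protein that binds and sequesters the ligand) and *Gli1* (an activator) are themselves well-known targets of the pathway, whereas *Smo*, *Sufu*, *Gli2* and *Gli3* are parts of the machinery that are transcribed largely without it. In the second heart field, Hedgehog signal from the foregut endoderm reaches progenitors of the atrial septum. The comparison of mutant with wild-type pools therefore asked how the transcripts of the target genes and of the transducers stood in tissue without the ligand.

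The probes behind the results are shown first, because probes of a gene that lie in different parts of its transcript gave the check of 1 measurement against another. Each probe is 60 bases long, its opening 30 bases are given 5′ to 3′ as the scan files have them, and the position is that of the files' mm9 annotation. The positions of the *Gli1* and *Gli2* probes are rounded in their last digit, so their printed spans differ from 60 bases. No gene annotation of that build was used here, so exon and UTR are not stated. Probes of a gene are numbered by their mean signal over the 7 arrays. The 5 probes of the target genes and the brightest probe of each transducer were as follows.
Ptch1 probe 1, chr13:63612907-63612966 (minus strand): ggggtatttgaggatcctcatgtgcctttt
Ptch1 probe 2, chr13:63610298-63610357 (minus strand): catttggatgttttaatttgtaaaagaaaa
Hhip probe 1, chr8:82496214-82496273 (minus strand): atgacgtcttacttgctggatctcacaagt
Hhip probe 2, chr8:82490729-82490788 (minus strand): tatagaattatgaccatgagcatgaaagac
Gli1 probe 1, chr10:126767990-126768050 (minus strand): ccgggtgctgcctatagccagtgtcctcga
Smo probe 1, chr6:29711225-29711284 (plus strand): aatgtctagtcattttcatagtgccccaca
Sufu probe 1, chr19:46563107-46563166 (plus strand): tgctgcaatgaacagacttttgtacatttt
Gli2 probe 1, chr1:120731260-120731310 (minus strand): aggcattgattcttggactttgaggaactc
Gli3 probe 1, chr13:15821502-15821561 (plus strand): tgttctcctctgacaagttacgcttgtata
*Ptch1* probe 2 stood out by composition, with 21.7% G and C against 50% in *Ptch1* probe 1. *Ptch1* probe 1, *Gli1* probe 1 and *Gli3* probe 2 were each printed 10 times on an array and the other member probes once.

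Of all probes, 59.8% to 70.6% were well above background in a pool, no spot was saturated, and the median SD between pools over tested probes was 0.18 in mutants and 0.16 in wild-type on the log2 scale, after variance-stabilizing normalization (VSN) between arrays. *Shh*, the gene removed in the mutants, gave log2 signals of 9.67, 9.39, 9.22 and 9.32 in mutant pools 1 to 4 and 10.72, 10.74 and 9.98 in wild-type pools 1, 3 and 4. The genotypes did not overlap, in the direction of the labels, and the log2 change was -1.08 (SE 0.20, limma adjusted p = 0.065). The probe starts at base 2004 of its transcript, and whether this lies in the part removed by the mutant allele is not given in the sources used here, so a remaining signal in mutants was not followed further. Markers of the pSHF were well above background in all pools, among them *Isl1* and *Tbx5*.

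In the *Shh* mutant pSHF, *Hhip* transcript fell to 14.1% of the wild-type level on probe 1 (limma adjusted p = 0.00124). On the dimmer probe 2 it was at least 4.69-fold lower on the VSN values, a bound set by background in the mutant pools. *Gli1* and *Ptch1* were at 49.3% and 44.6% of wild-type on their brightest probes, with every mutant pool below every wild-type pool, but neither passed the test across all probes. *Smo*, *Sufu*, *Gli2* and *Gli3* differed by at most 0.33 on the log2 scale on any tested probe, in both directions. Over all tested probes, limma with Benjamini-Hochberg adjustment called 67 lower and 56 higher in the mutants at an adjusted p under 0.05, which is 0.29% lower and 0.532% in either direction. The member probes called were those of *Hhip*, and those lower in every mutant pool than in any wild-type pool were these and the brightest probes of *Gli1* and *Ptch1*. This separation was seen in 3.59% of all tested probes in that direction and in 8.29% in either. *Hhip* probe 2, *Ptch1* probe 2 and *Gli2* probe 2 had passed the filter on dim probes through the wild-type pools only, so nothing is read from how many member probes were lower or called. With 1 pool left out in turn, 12 to 136 probes were called, the fewest without mutant pool 3. With slide as a fixed block, which pairs the pools of the same number, 11 probes were called in place of 123. Fewer cells that express a gene and less transcript per cell cannot be told apart in such pools.

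**Figure D1:**
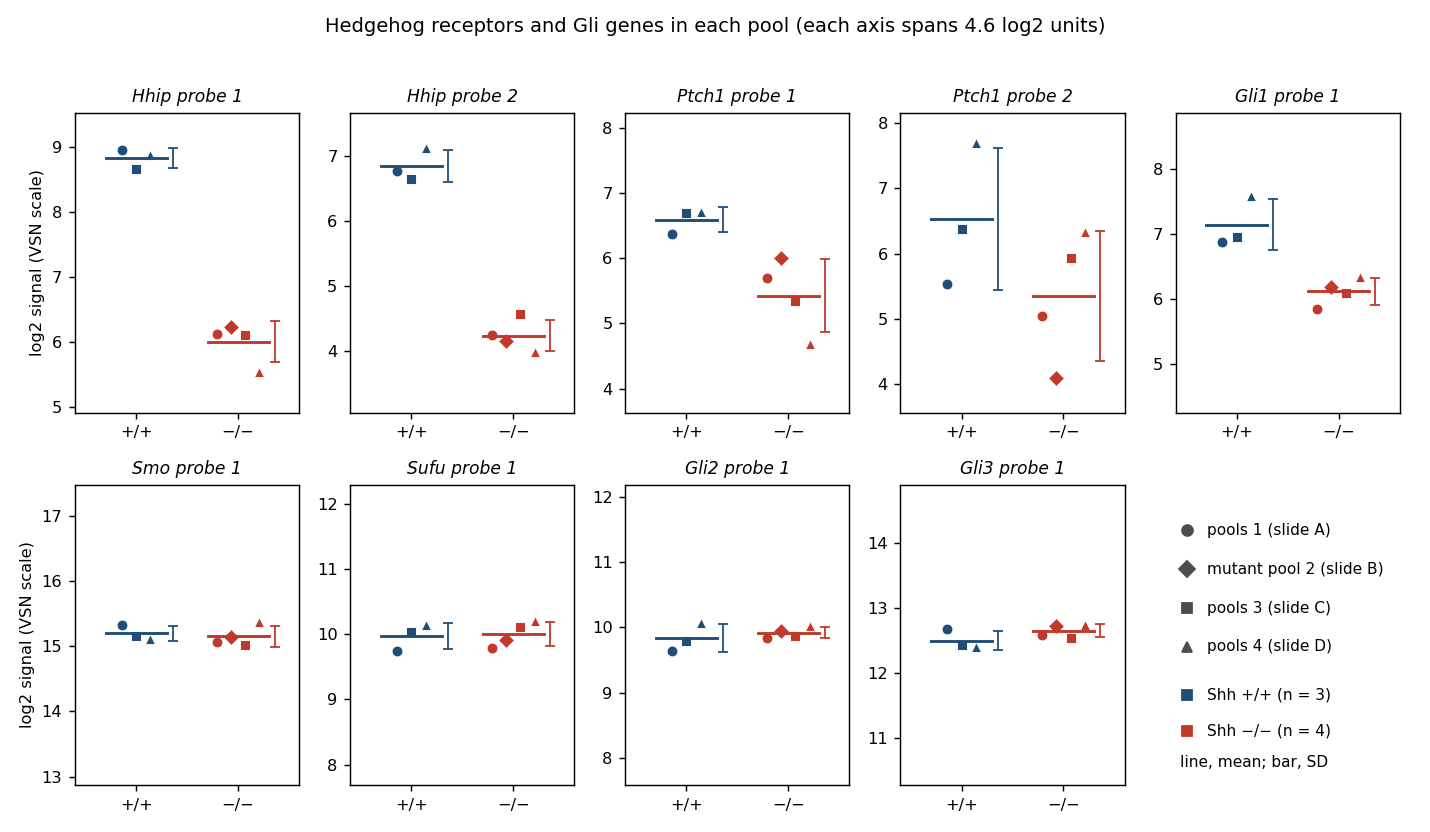
Log2 signal after VSN of each pool (y axis, each panel spanning the same number of log2 units) by *Shh* genotype (x axis), for the target gene probes (*Hhip*, *Ptch1*, *Gli1*) and the brightest probe of each transducer; lines are means, bars SD, marker shapes slides. The *Hhip* mutant pools lie 5.55 to 6.24 on probe 1 against 8.66 to 8.95 in wild-type, while the genotypes overlap for *Ptch1* probe 2 and for all 4 transducers.

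*Hhip* was the most clearly changed member. Probe 1, which starts at base 2554 of the transcript, gave log2 signals of 6.14, 6.24, 6.11 and 5.55 in mutant pools 1 to 4 and of 8.95, 8.66 and 8.88 in wild-type pools 1, 3 and 4. The gap between the genotypes was more than 2 log2 units. The change was -2.82 (SE 0.18, 95% interval -3.22 to -2.42), a 7.08-fold lower signal, with a limma adjusted p of 0.00124. The exact permutation test gave p = 0.0286, two-sided, which is the smallest p that 4 against 3 pools allow. Probe 1 ranked 1 of all tested probes by p and 2 by the size of the fall.

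*Hhip* probe 2, which starts 5485 bases further along the same transcript, was read beside it. This probe had passed the filter on dim probes through the wild-type pools only, being well above background in all 3 of them but in 1 of 4 mutant pools, so its test is no second support for the fall. Its log2 signals were 4.25, 4.16, 4.57 and 3.99 in mutant pools 1 to 4 and 6.77, 6.64 and 7.11 in wild-type pools 1, 3 and 4. The measured means were 4.24 ± 0.24 (SD, n = 4) in mutants and 6.84 ± 0.25 (SD, n = 3) in wild-type, and the signal was at least 4.69-fold lower in mutants (limma adjusted p = 0.00124 for the measured change of -2.60, SE 0.17). The bound sets the wild-type mean against the lowest signal that counted as well above background on each mutant array, or the probe's own where that was higher. It holds for the VSN values only. The measured change of probe 2 was -1.33 with quantile normalization, -1.91 without background correction and -0.17 with normexp on the local background, all smaller than the bound. It was -3.22 with 75th percentile scaling.

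Within slides, the fall of *Hhip* held on each. On probe 1 the mutant pool minus the wild-type pool of its slide was -2.82 for pools 1, -2.56 for pools 3 and -3.33 for pools 4. Raw signals were separated too, as the mean signal before any correction was 71.0 to 125.6 in mutants and 417 to 540 in wild-type, with a local background of 20 to 25.5. Negative control spots averaged 28.1 to 37.4 on these arrays.

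*Gli1*, the target gene whose product is itself a Gli activator, was read by 1 probe printed 10 times. It gave 5.85, 6.19, 6.08 and 6.34 in mutant pools 1 to 4 and 6.87, 6.95 and 7.58 in wild-type pools 1, 3 and 4. The highest mutant pool stayed below the lowest wild-type pool. The change was -1.02 (SE 0.19, 95% interval -1.46 to -0.58, 2.03-fold lower), with a limma adjusted p of 0.066 and an exact permutation p of 0.0286. With slide as a random block the adjusted p was 0.045, on the other side of the threshold, at a change of -1.02. By slide the mutant minus wild-type difference was -1.02, -0.87 and -1.25 for pools 1, 3 and 4.

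The pools differed more in *Gli1* than repeated spots did. The 10 spots on an array had a log2 SD of 0.042 to 0.14, against an SD between pools of 0.20 in mutants and 0.39 in wild-type. All 10 spots were well above background on every array. Before normalization the mean spot signals of the genotypes met, at 73.2 to 124.0 in mutants and 116.4 to 233.9 in wild-type, since the arrays differed in overall brightness.

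*Ptch1*, the receptor that both binds the ligand and is induced by it, was read by a pair of probes that ordered the pools differently. Probe 1 gave 5.69, 6.00, 5.34 and 4.68 in mutant pools 1 to 4 and 6.37, 6.70 and 6.71 in wild-type pools 1, 3 and 4. No mutant pool reached a wild-type pool, and mutant pool 4 was lowest. The change was -1.17 (SE 0.28, 95% interval -1.80 to -0.54, 2.24-fold lower), with a limma adjusted p of 0.139 and an unadjusted p of 0.0024. The exact permutation p was 0.0571, because 1 other split of the pools gave a difference of means at least as large. Leaving out mutant pool 4 changed the value to -0.92. By slide the differences were -0.68, -1.36 and -2.03 for pools 1, 3 and 4.

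*Ptch1* probe 2, which starts at base 6935 of another transcript record, gave 5.03, 4.09, 5.93 and 6.33 in mutant pools 1 to 4 and 5.53, 6.38 and 7.69 in wild-type pools 1, 3 and 4. Here the genotypes overlapped, mutant pool 4 was the highest of the mutants and mutant pool 2 the lowest. The change was -1.19 with a wide error (SE 0.60, 95% interval -2.55 to 0.18, limma adjusted p = 0.757), and the SD between pools was 1.00 in mutants and 1.09 in wild-type. The probe was not well above background in mutant pool 2. With that pool raised to the floor of its array, the mean was 1.99-fold lower in mutants. The interval of the change held 0, so this is no least size of a fall. With 1 pool left out in turn the change ranged over -1.69 to -0.61, the smallest without wild-type pool 4, and it was -0.77 without mutant pool 2. Within slides the difference was -0.49, -0.45 and -1.36 for pools 1, 3 and 4. The difference between the *Ptch1* probes varied with an SD of 1.54 between mutant pools and 0.94 between wild-type pools. In mutant pool 4, 6 of the 10 spots of probe 1 were well above background, and in every other pool all 10 were. These spots had a within-array SD of 0.047 to 0.12, well under the SD of 0.57 between mutant pools.

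*Smo*, which passes the signal across the membrane, differed little by genotype. Its brightest probe gave 15.06, 15.14, 15.02 and 15.37 in mutant pools 1 to 4 and 15.33, 15.16 and 15.11 in wild-type pools 1, 3 and 4, and the genotypes overlapped. The change was -0.05 (SE 0.12, 95% interval -0.33 to 0.23, limma adjusted p = 1.00), so a fall of the size seen in *Gli1* lies outside its interval. Probe 2, of the same transcript record, was far dimmer, with mean log2 signals of 6.26 in mutants and 6.46 in wild-type against 15.15 and 15.20 on probe 1. The cause of this gap in level was not tested. Probe 2 had a change of -0.20 (95% interval -0.53 to 0.14). Probe 3 was well above background in 1 pool of each genotype and was not tested.

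*Sufu*, which restrains the Gli proteins, was read by 3 tested probes. The brightest gave 9.78, 9.91, 10.10 and 10.19 in mutant pools 1 to 4 and 9.75, 10.03 and 10.14 in wild-type pools 1, 3 and 4. These values interleave, and the pools of a slide stood together, with mutant minus wild-type differences of 0.033, 0.068 and 0.058 for pools 1, 3 and 4. The change was 0.03 (SE 0.15, 95% interval -0.30 to 0.35). Probes 2 and 3 were much dimmer, with wild-type mean log2 signals of 5.84 and 5.30 against 9.97 on probe 1. They had changes of -0.17 (95% interval -0.56 to 0.23) and 0.20 (95% interval -0.31 to 0.71). The sign of the change on probe 1 was negative under all 7 other scalings of the arrays, so no direction is given for *Sufu*.

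*Gli2*, the main activator among the transducers, gave 9.84, 9.94, 9.87 and 10.03 on its brightest probe in mutant pools 1 to 4 and 9.64, 9.80 and 10.07 in wild-type pools 1, 3 and 4. The wild-type pools spanned all mutant pools. The change was 0.08 (SE 0.13, 95% interval -0.21 to 0.37, limma adjusted p = 1.00). Probe 2 was dim, well above background in 1 of 4 mutant and 3 of 3 wild-type pools. Its change was -0.33 (95% interval -0.76 to 0.09). With dim mutant pools raised to the floor of their arrays, the mean was 1.1-fold lower in mutants. The interval of the change held 0, so this is no least size of a fall.

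*Gli3*, which acts largely as a repressor, gave 12.58, 12.73, 12.54 and 12.74 on its brightest probe in mutant pools 1 to 4 and 12.67, 12.44 and 12.40 in wild-type pools 1, 3 and 4. The genotypes overlapped through wild-type pool 1. The change was 0.15 (SE 0.12, 95% interval -0.12 to 0.42, limma adjusted p = 1.00). Probe 2 was well above background in 1 mutant and 2 wild-type pools and was not tested. None of the 8 tested probes of the 4 transducers reached an unadjusted p under 0.05, and none separated the genotypes.

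**Figure D2:**
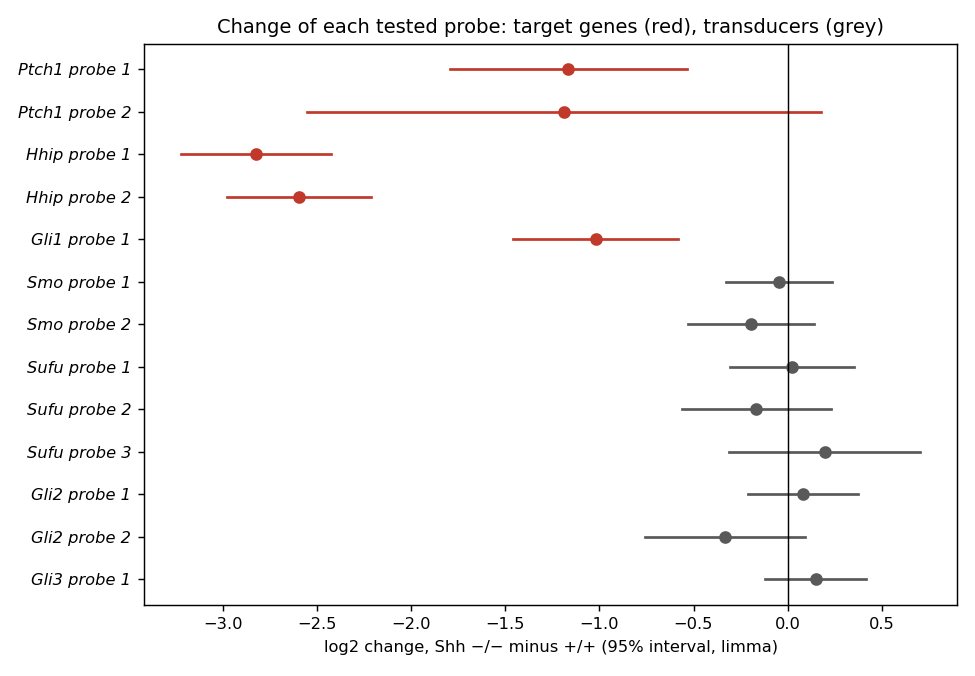
Log2 change of mutant against wild-type pools (x axis) with its 95% interval from limma for each of the 13 tested member probes (y axis), target genes in red and transducers in grey. Both *Hhip* probes lie below -2, *Gli1* and *Ptch1* near -1, and the interval of every transducer probe holds 0.

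The target genes were then set against the transducers inside each array, which removes the brightness of the array from the comparison. For each of 12 pairs the log2 signal of the transducer was subtracted from that of the target gene in each pool, both on their brightest probes, and the genotypes were compared by the exact permutation test, two-sided, with Benjamini-Hochberg adjustment over the 12 pairs. In all 12 pairs the difference was lower in every mutant pool than in any wild-type pool. The brightest probe of each target gene already separated the genotypes alone, so the pairs largely restate that. No share over pairs of other genes was computed. The dimmer probes of the transducers were not used. For *Hhip* the mutant minus wild-type difference was -2.97 to -2.78 over the 4 transducers, and each had an exact p of 0.0286 (adjusted 0.0381). For *Gli1* it was -1.17 to -0.97, with the same p. For *Ptch1* it was -1.32 to -1.12, with an adjusted exact p of 0.0381 against *Gli3* and 0.0571 against *Smo*, *Sufu* and *Gli2*. The pairs are not independent, since 7 genes make all 12.

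**Figure D3:**
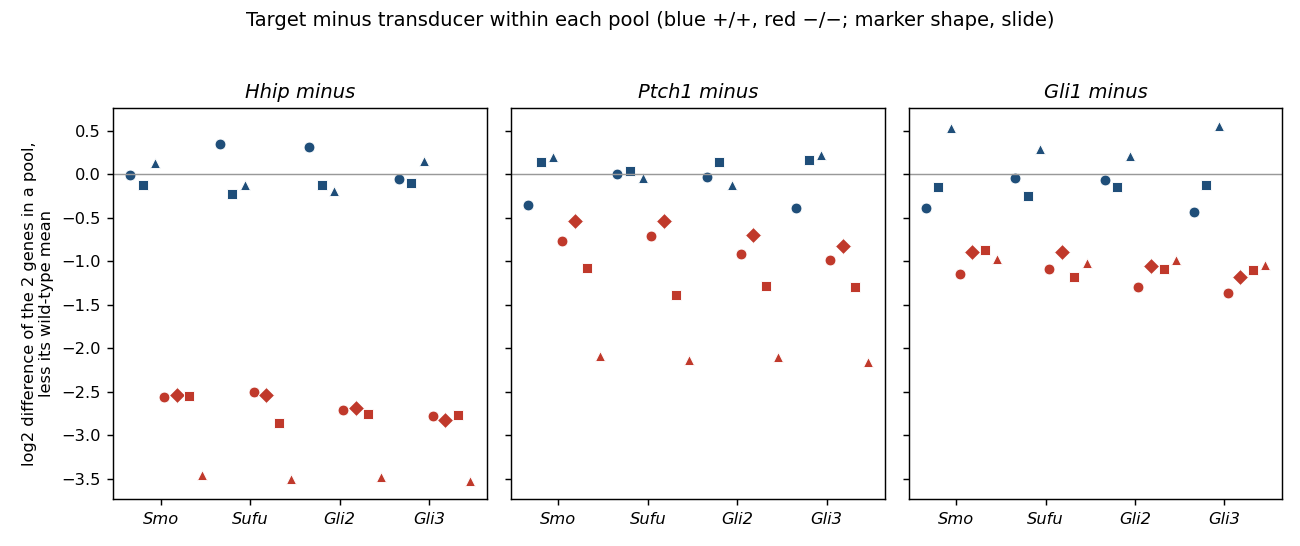
Log2 signal of a target gene minus that of a transducer in each pool, less the wild-type mean of that pair (y axis), for *Hhip*, *Ptch1* and *Gli1* (panels) against each transducer (x axis), with wild-type pools in blue, mutant pools in red and marker shapes for slides. In all 12 pairs the 4 mutant pools lie below the 3 wild-type pools, and mutant pool 4 is lowest for *Hhip* and *Ptch1* but not for *Gli1*.

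The changes of the target genes kept their direction under the alternatives tried, at very different sizes. *Hhip* probe 1 was lower in the mutants under all 22 other settings and called in 20 of them. *Gli1* was lower under 22 and called in 4, and *Ptch1* probe 1 was lower under 22 and called in 1, with array weights (adjusted p = 0.018). Many of these settings could not turn the direction. Dropping the filter on dim probes, the interquartile range filter and a variance trend in limma left each change as it was. Leaving out 1 pool could not turn it either, as these probes separated the genotypes. The fixed slide block gave the same changes as leaving out mutant pool 2, which had no partner. Quantile normalization gave -2.21 for *Hhip*, -0.71 for *Gli1* and -0.66 for *Ptch1*, on values that keep the offset of 50 added to every signal. Normexp on the local background, also with quantile normalization, gave -0.57 for *Hhip* (limma adjusted p = 0.018), -0.12 for *Gli1* and -0.086 for *Ptch1*. Its fitted background SD was 7175 in mutant pool 2, against an SD of 7.71 among the negative controls of that array. The same steps with normexp using negative controls, chosen after seeing the data, gave -2.19, -0.71 and -0.66. The cause of the difference was not tested. Without mutant pool 2, the pool with the possible leak, the values were -2.90, -1.05 and -1.36. In the table deposited by the authors, the arrays have medians of 5.50 to 9.93, and taken as it stands the median of all tested probes is -0.54, lower by 0.56 than here, so all 4 transducers read lower there. Set to a common median, that table gave -2.80 for *Hhip*, -0.96 for *Gli1* and -1.13 for *Ptch1*, none called.

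**Figure D4:**
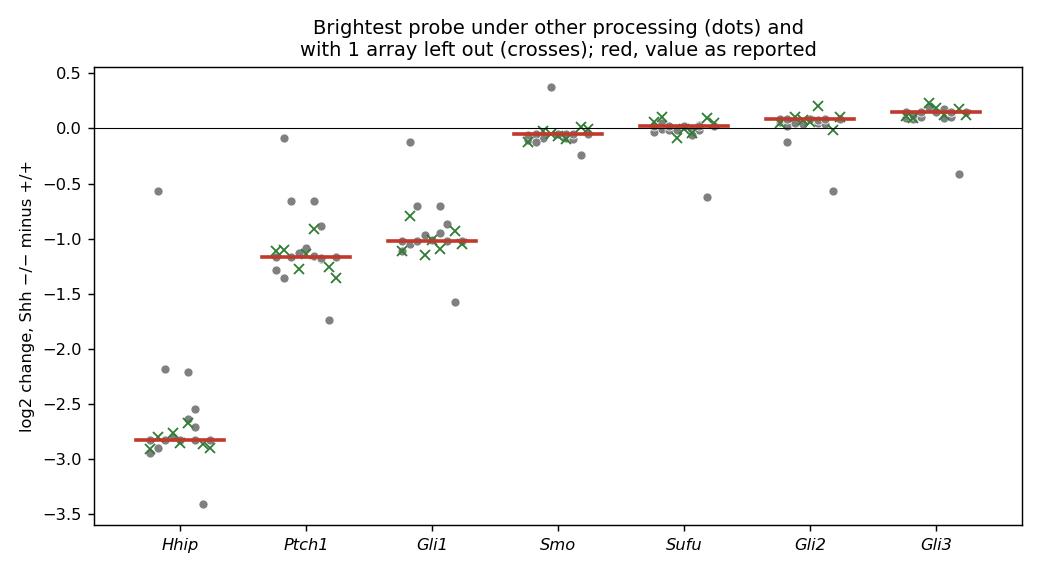
Log2 change of mutant against wild-type pools (y axis) of the brightest probe of each member (x axis) as reported (red lines), under other processing (grey dots) and with 1 array left out (green crosses). The 3 target genes stay below 0 throughout, *Sufu* lies on both sides of 0, and *Gli3* lies above 0 except in the authors' table as deposited, where *Sufu* reads -0.63, *Gli2* -0.57 and *Gli3* -0.41.

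The rest of the pathway was described from fixed lists, each gene by its brightest tested probe. Over all 14891 genes the median change was 0.029, with 6069 lower (58 called) and 8822 higher (54 called). Among the ligands, *Shh* had a change of -1.08, and the others, *Ihh* and *Dhh*, had changes of 0.45 (adjusted p = 0.362) and 0.49 (adjusted p = 0.387) with limma, so none of 3 was called. Of 12 tested genes for ligand release and co-reception, 11 had a positive change, none was called and the median was 0.12. The largest were *Lrp2*, a large endocytic receptor, at 0.70 (limma adjusted p = 0.136), *Gas1*, a co-receptor, at 0.40 (adjusted p = 0.338) and *Scube2*, which helps release the ligand, at 0.35 (adjusted p = 0.901). Of 32 tested cytoplasmic and ciliary regulators of the Gli proteins, 1 was called, and the median was 0.027. This was *Zic1*, a zinc-finger transcription factor related to the Gli proteins and best known from the dorsal neural tube. The list held it although it is not a cytoplasmic or ciliary protein, and no other gene of the list was called. *Zic1* fell by 1.92 (limma adjusted p = 0.044) and was not called with 75th percentile scaling, with normexp on the local background or in the authors' table. *Arrb1* at -0.35 and *Prkaca*, a catalytic subunit of the kinase that primes Gli processing, at 0.20 had the next largest changes and were not called.

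A last list held other genes known to respond to Hedgehog signalling. Of 14 tested, 11 were lower, 3 were called and the median change was -0.15. The called genes were *Pax1* at -3.01 (limma adjusted p = 0.042) and *Pax9* at -2.54 (adjusted p = 0.035), both transcription factors of the sclerotome, and *Foxf2*, a forkhead factor of foregut mesenchyme, at -2.43 (adjusted p = 0.0021). *Pax9* was well above background in only 4 of 7 pools. It had passed the filter on dim probes through the wild-type pools only, so nothing is read from its call. Of these 3 calls, 1 was left with 75th percentile scaling and 1 with normexp on the local background, and 0 in the authors' table, as deposited or with a common median. No test compared these lists with each other or with other genes.

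**Figure D5:**
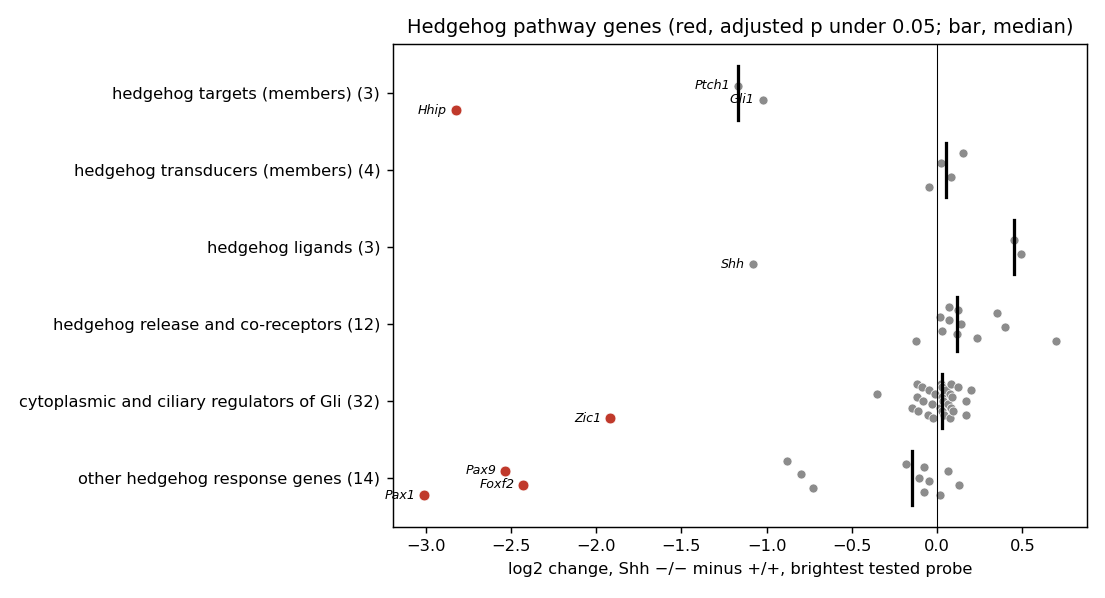
Log2 change of mutant against wild-type pools (x axis) of each gene of the Hedgehog lists by its brightest tested probe (points, with the number of genes per list on the y axis), red where the limma adjusted p was under 0.05 and with the list median as a bar. Called genes lie below 0 in 3 lists, and the 4 transducers lie within 0.15 of 0.

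Markers of other cell types moved with genotype and are given here beside the falls of *Hhip*, *Gli1* and *Ptch1*. All 6 tested neural tube markers of 12 were lower in mutants, none called (median change -0.71), and their summed signal was 2273 to 3749 in mutants against 5077 to 6234 in wild-type. The others were not tested, and *Irx3* among them was not well above background in any pool. The changes of the 6 tested markers ran from -2.66 in *Hes5* to -0.03. Their sum came mostly from *Nkx6-1*, by far the brightest, with mean log2 signals of 11.3 in mutants and 12.1 in wild-type. The separated sums are therefore read as those of 1 gene rather than of the neural tube. Of 8 sclerotome markers, 6 were lower and 2 were called (*Pax1* and *Pax9*, 0 with 75th percentile scaling, with normexp on the local background or in the authors' table), with summed signals of 6354 to 8544 and 7997 to 11968. The *Pax9* probe had passed the filter on dim probes through the wild-type pools only, so its call is no support. All 9 liver bud markers were higher (median change 0.82) and 2 were called, *Ttr* at 0.91 and *Fgb* at 0.82 (1 with quantile normalization and 0 with 75th percentile scaling, with normexp on the local background or in the authors' table), with summed signals of 152081 to 203780 and 138080 to 150142. Cardiomyocyte markers were all higher (12 of 12) and erythroid markers all lower (10 of 10), with overlapping sums and none called. Under the other scalings of the scan files, and in the authors' table set to a common median, between 4 and 6 of the neural markers and at least 11 of the cardiomyocyte markers kept these directions, and 6 of the 10 erythroid markers did so in that table. Foregut endoderm markers had 8 of 11 lower and 3 higher, none called, and second heart field markers had 5 of 10 lower. The part of these markers in the falls of the target genes was not tested.

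The genes nearest in pattern to each target gene were found by the root mean square difference of log2 values centred on the mean of the 7 pools, over 14832 other genes by their brightest probe. The genotype difference of a target gene is part of its pattern, so nothing is read from the direction or calls of its neighbours. Among the 5 nearest to *Hhip* were *Foxf2* (0.34), *Lbxcor1* (0.37), *Crhbp* (0.48) and *Pcp4* (0.55). Among the 5 nearest to *Gli1* were *Metrn* (0.11), *Hsd11b2* (0.13), the locus LOC100049166 (0.17) and *U2af1* (0.20). Nearest to *Ptch1* were *Sorcs2* (0.29), *Osr1* (0.32), *Esm1* (0.34), *Nkx2-1* (0.34) and *Mab21l1* (0.36), at wider distances than those of *Gli1*. For each target gene 4 of the 5 stayed among the nearest when the arrays were scaled to the 75th percentile.

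The promoters of the members were searched for the Gli consensus GACCACCCA and for its core ACCACCC on both strands, in the 250 bases before the transcript start of RefSeq (GRCm38.p6). Of 32851 promoters searched, 0.225% held the consensus and 3.92% held the core. The promoter of *Gli1* was missing from the reference used and was not searched. None of the 6 other member promoters held the consensus, and only that of *Gli2*, a transducer, held the core. The closest match in *Hhip* had 7 of 9 bases, a match reached or passed in 51.8% of promoters, and that in *Ptch1* had 6 of 9, reached or passed in 98.6%. The promoters of *Hhip* and *Ptch1* are shown because these genes were lower in the mutants, with the closest match in capitals, the first found where matches tied. That of *Gli2* is shown because it holds the core, in capitals and on the reverse strand.
Hhip promoter, chr8:80058009-80058258 (minus strand): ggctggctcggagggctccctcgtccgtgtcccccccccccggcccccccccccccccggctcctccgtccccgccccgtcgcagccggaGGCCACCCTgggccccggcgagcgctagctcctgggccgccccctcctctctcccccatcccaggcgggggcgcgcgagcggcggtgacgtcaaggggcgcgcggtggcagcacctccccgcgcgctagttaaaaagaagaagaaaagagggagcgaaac
Ptch1 promoter, chr13:63565736-63565985 (minus strand): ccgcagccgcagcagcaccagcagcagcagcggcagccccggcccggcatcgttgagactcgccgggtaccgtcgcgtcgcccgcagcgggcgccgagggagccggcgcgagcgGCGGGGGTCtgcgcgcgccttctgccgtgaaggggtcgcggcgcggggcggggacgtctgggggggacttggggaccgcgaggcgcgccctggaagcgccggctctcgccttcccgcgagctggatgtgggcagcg
Gli2 promoter, chr1:119053620-119053869 (minus strand): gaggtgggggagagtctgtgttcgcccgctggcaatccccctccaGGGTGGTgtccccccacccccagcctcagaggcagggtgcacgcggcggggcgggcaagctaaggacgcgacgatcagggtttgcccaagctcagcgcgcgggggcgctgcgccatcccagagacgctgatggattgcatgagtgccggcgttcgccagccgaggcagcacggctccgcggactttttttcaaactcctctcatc
A match is a description of letters in this window only.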

How the data were processed

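RNA from 7 pools of E9.5 pSHF was hybridized to 1-colour Agilent whole-genome arrays. The deposited scan files hold spot intensity values, written with Agilent Feature Extraction 10.5.1.1 per the labels. The deposited table of the authors holds log2 values after VSN. Its centring differs between arrays and is not stated, so it served as an alternative. Groups came from the labels, in which the strain and genotype entries stand under each other's names, and the members and lists were chosen with earlier results of these data known.

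Mean signals were background-corrected by normexp with the negative control spots (offset 50, limma 3.58.1, R 4.3.3), normalized by an own VSN fit and set to log2, with outlier spots left out and the spots of a probe averaged. Tested were probes with a gene name whose signal was well above background on all arrays of at least 1 genotype. limma with Benjamini-Hochberg adjustment at 0.05 stood in for the SAM test of the study's methods. The VSN fit followed by limma was tested on simulated data, and the other steps were not. Precision is limited by having 4 and 3 arrays, and whether embryos were shared between pools is not given in the sources used here, so p-values measure the spread between these pools.

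The replicate number marks a shared slide in the labels and so pairs the pools. Over tested probes the deviations of pools on a slide correlated at 0.19, 0.24 and 0.033 for pools 1, 3 and 4. Those of mutant and wild-type pools on different slides correlated at -0.22 to 0.19, a range that overlaps these values.

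Genes named outside the members were *Shh*, the called genes of each list or its 3 largest changes, and the 5 genes nearest in pattern to each target gene, of which some are not reported here. Another 15 alternatives, and 7 fits that leave out 1 array each, were computed. Protein sequences were not used here.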

Additional observations from a re-analysis of the deposited data

How the results depend on the processing

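The number of probes called depended on the processing more than any member did. It was 123 here (67 lower, 56 higher), 57 with 75th percentile scaling (38 lower, 19 higher), 13 with normexp on the local background, 33 without the filter on dim probes, 547 with array weights and 11 with the replicate block of slide as a fixed term. It was 0 in the authors' table as deposited and 0 after setting its arrays to a common median, where the main values have 1837 probes at an unadjusted p under 0.05. Leaving out 1 array gave 12 to 136, namely 14, 30 and 35 without wild-type pools 1, 3 and 4 and 37, 12 and 73 without mutant pools 2, 3 and 4. The *Hhip* probe 1 change was called except in the authors' table, at -3.41 (limma adjusted p = 0.934) as deposited and -2.80 (adjusted p = 0.117) with a common median, and it ranged over -2.91 to -2.67 with 1 array left out. *Gli1* passed the threshold at -1.02 with the interquartile range filter, with the random slide block and in the fit of gene means, and at -0.94 with array weights, but with no array left out (-1.15 to -0.80). *Ptch1* probe 1 passed with array weights alone, at -1.16, and ranged over -1.36 to -0.92 with 1 array left out. Slide as a replicate block changed no other call of a member, at -2.90 for *Hhip* and -1.36 for *Ptch1* with the fixed block.

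No transducer was called under any alternative. Of 22 alternatives, the sign of *Sufu* probe 1 turned in 11 and that of *Gli3* probe 1 in 1. Of 21, that of *Gli2* probe 1 turned in 3, that of *Smo* probe 1 in 2 and that of *Smo* probe 2 in 0. *Sufu* probe 1 turned to -0.030 with 75th percentile scaling, -0.013 with quantile normalization, -0.0086 with normexp on the local background, -0.016 without background correction, -0.015 with normexp on the local background using negative controls (an alternative chosen after seeing the data), -0.058 with array weights, and -0.63 and -0.018 in the authors' table as deposited and with a common median. In the table as deposited *Sufu* probe 3 was -0.18, *Gli2* probe 1 -0.57 and *Gli3* probe 1 -0.41. With a common median *Smo* probe 1 was 0.37, *Sufu* probe 2 was 0.13 and *Gli2* probe 2 was 0.16. The mean over the *Gli2* probes was -0.13. With 1 array left out *Smo* probe 1 ranged over -0.12 to 0.015, *Sufu* probe 1 over -0.087 to 0.11 and *Gli2* probe 1 over -0.015 to 0.20. The cause of these turns was not tested. The 12 pairs of target and transducer stayed apart with any 1 array left out. This could not turn out otherwise, because all 12 were apart with every array in, so nothing is read from it. With 1 array left out no exact p under 0.067 is possible. Of the 12 pairs, 9 were apart in the values deposited by the authors. Pairs past the exact test numbered 9 here, 9 with 75th percentile scaling, 11 with quantile normalization and 7 in the authors' table. Normexp on the local background gave -0.57 for *Hhip* probe 1, -0.17 for *Hhip* probe 2 (adjusted p = 0.063), -0.12 for *Gli1* and -0.086 for *Ptch1* probe 1, from a fitted background SD of 0.28 to 7175 per array against an SD of 3.42 to 11.7 among negative controls, and the cause was not tested. Signal over background limits *Hhip* probe 2 and *Gli2* probe 2, each well above background in 1 of 4 mutant pools, and *Ptch1* probe 2, in 3 of 4.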
